A study of Homo sapiens with 15 samples.

Results

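High-dose ascorbic acid (AA, vitamin C, 100 µg/ml) and interferon alpha (IFN-α, 1000 IU/ml) were compared directly with each other in MT-2, a line of CD4+ T cells that the retrovirus HTLV-1 had immortalised, after 48 hours of treatment. The comparison takes the 3 high-dose AA arrays and the 3 IFN-α arrays, 6 of the 15 arrays of the series, each AA array set against the IFN-α array whose title ends in the same experiment tag. The other 9 arrays hold untreated cells, low-dose AA (10 µg/ml) and intermediate-dose AA (50 µg/ml), 3 arrays each. All conditions were run in each of 3 experiments, 2 of which (experiments 2 and 3) have tags of 1 date told apart by a letter. Every array is of the same line, so the spread between experiments is that of repeated runs on 1 line carrying an integrated virus, and not of donors. In such bulk RNA, a lower signal can come from fewer cells that carry a transcript or from less of it in each cell, and these cannot be told apart.

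IFN-α binds its receptor and, through JAK kinases and STAT proteins, induces interferon-stimulated genes with antiviral roles, many of which carry a short DNA element repeating GAAA in their promoters. AA is a reducing agent and a cofactor of iron-dependent dioxygenases. It enters cells as ascorbate through sodium-coupled transporters or, once oxidised, as dehydroascorbate through glucose transporters. ATF4 is a transcription factor that raises genes for amino acid uptake, amino acid synthesis and glutathione turnover when amino acids are short or proteins misfold. The direct comparison asks which genes set the 2 treatments apart once a list of interferon-stimulated genes is put aside.

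Human Gene 1.0 ST arrays from Affymetrix gave 1 value for each of 28926 transcript clusters (sets of probes on the exons of 1 locus). Values are log2 values normalised by the authors, and a difference is given as high-dose AA minus IFN-α in log2 units, so that a negative difference means a lower value with AA. A cluster was called at an unadjusted p under 0.001 in limma, with the experiment as a block. The difference rests on the 6 arrays alone, whereas its spread was estimated over all 15. A list of interferon-stimulated genes was put aside, and 260 clusters name a member of it. Genes outside the interferon list are those of the 28666 clusters that name no member. A gene off the list can still respond to IFN-α in these cells, and some described below were higher with IFN-α than in untreated cells. Replicate 3 of high-dose AA stood apart, with a mean correlation of 0.976 with the other arrays against 0.991 to 0.995 for those, and with the narrowest spread of values (SD 2.02 against 2.12 to 2.18). In experiment 3 the dimmest 25% of clusters had a median difference of 0.23 and the brightest 25% one of -0.16, against -0.01 and 0.04 in experiment 1. Of the markers of other blood cells, 0 of 7 for B cells, 0 of 9 for myeloid cells and 0 of 8 for NK cells were called, with median differences of -0.07, 0.05 and 0.05. Of 11 T-cell markers 0 were called, 6 were higher and 5 lower with AA, and the median was 0.00. Mean levels of the CD3 chains CD3D, CD3E and CD3G were 5.16 to 5.79, near the lower quartile of the arrays (5.20 to 5.53). CD4, the lowest difference of these markers (-0.30), had 10.91, 10.82 and 10.10 with AA and 10.91 on each IFN-α array, the low value being that of replicate 3.

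The promoters of a few of the genes described below are printed first, with the letters that were searched for in capitals. For each, the 250 bases before the RefSeq gene start are given 5′ to 3′ on the strand of the gene (GRCh38.p14). The motifs GAAA, any 2 bases, GAAA (an interferon element) and TGATGCAA (a core bound by ATF4) were looked for on both strands, from 250 bases before to 50 bases after the start. SIDT1 (chr3:113532305-113532554, + strand) and SLFN12L (chr17:35537679-35537928, - strand) were lower with high-dose AA than with IFN-α without being on the interferon list, and are shown because each held the interferon element. In SIDT1 it lies on the opposite strand, 34 to 25 bases before the start, and reads as its reverse complement, and in SLFN12L it lies 126 to 117 bases before the start.
SIDT1: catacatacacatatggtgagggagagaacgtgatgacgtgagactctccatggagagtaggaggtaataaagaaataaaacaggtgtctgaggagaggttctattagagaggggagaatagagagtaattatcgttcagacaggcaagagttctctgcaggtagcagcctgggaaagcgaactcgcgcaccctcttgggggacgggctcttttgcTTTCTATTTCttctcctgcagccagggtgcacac
SLFN12L: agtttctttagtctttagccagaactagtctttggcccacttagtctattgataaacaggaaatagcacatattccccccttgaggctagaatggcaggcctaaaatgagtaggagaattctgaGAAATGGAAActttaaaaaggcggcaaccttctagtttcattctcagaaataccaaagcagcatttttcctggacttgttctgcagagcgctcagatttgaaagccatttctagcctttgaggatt
CHAC1 (chr15:40953221-40953470, + strand), a gene of the ATF4 list that was lower with AA, held the ATF4 core on the opposite strand, 209 to 202 bases before the start. CCL1 (chr17:34363234-34363483, - strand), the named gene with the largest rise against IFN-α, held neither motif and is shown for comparison.
CHAC1: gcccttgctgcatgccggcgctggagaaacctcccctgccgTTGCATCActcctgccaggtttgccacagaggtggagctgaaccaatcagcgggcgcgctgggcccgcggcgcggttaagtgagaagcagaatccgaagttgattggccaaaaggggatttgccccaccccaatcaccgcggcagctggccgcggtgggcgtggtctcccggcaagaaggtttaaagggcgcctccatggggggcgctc
CCL1: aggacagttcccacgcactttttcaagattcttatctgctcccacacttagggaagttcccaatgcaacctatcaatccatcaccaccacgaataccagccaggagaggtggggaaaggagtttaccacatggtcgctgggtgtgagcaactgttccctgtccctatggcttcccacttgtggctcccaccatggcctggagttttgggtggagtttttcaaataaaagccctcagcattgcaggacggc
Of 35116 RefSeq promoters of this length, 3.57% held the interferon element and 0.866% held TGATGCAA. Among the measured genes of a short list of core interferon-stimulated genes, 33 had a promoter and 23 of these held the interferon element. Of the 12 leading genes lower with AA outside the list, 8 had a promoter and 2 held it, and of the 10 promoters of the 12 leading genes higher with AA, 0 did. A match is a run of letters and not a measured binding site.

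In all, 354 clusters were called (1.22% of those tested), 206 lower (0.712%) and 148 higher (0.512%) with high-dose AA, against 28.9 expected if nothing differed. The interferon list took 104 of them. All of these 104 were lower with AA, out of 260 on the list (40%). An adjusted p under 0.05 in limma was reached by 179 clusters (0.619%). OAS2, an enzyme that activates antiviral RNase L, had 5.57, 5.77 and 5.90 with AA and 10.49, 10.26 and 10.47 with IFN-α, a difference of -4.66. IFITM1, a membrane protein that blocks virus entry, had 5.98, 5.77 and 6.14 against 11.13, 10.63 and 10.56. For both, the groups lay far apart in every experiment.

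Outside the interferon list, 250 clusters were called (0.872% of 28666), 148 higher (0.516%) and 102 lower (0.356%) with AA than with IFN-α. The higher clusters had a median difference of 0.57 and ran up to 2.27, and 35 exceeded 1 in size. The lower clusters had a median difference of -0.51, ran down to -2.03, and 4 exceeded 1 in size. All 250 had the same sign in the 3 experiments. Over all clusters 15.3% were lower and 20.5% were higher in all 3. In 205 of the 250 the 3 AA values and the 3 IFN-α values did not overlap, which held for 3239 clusters of the whole array (11.2%). Calling by p favours both traits, so they are not added evidence. After Benjamini-Hochberg adjustment over all clusters, 93 passed an adjusted p under 0.05 in limma, 54 higher and 39 lower. These counts depend on how the spread was estimated. In a model of the 6 arrays alone 22 clusters were called outside the list (12 higher, 10 lower), and in a model without the experiment block 97 were (58 higher, 39 lower). Of the 148 higher clusters 8 were also called in the 6 arrays alone and 74 without replicate 3 of high-dose AA, and of the 102 lower clusters 9 and 46 were.

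**Figure D1:**
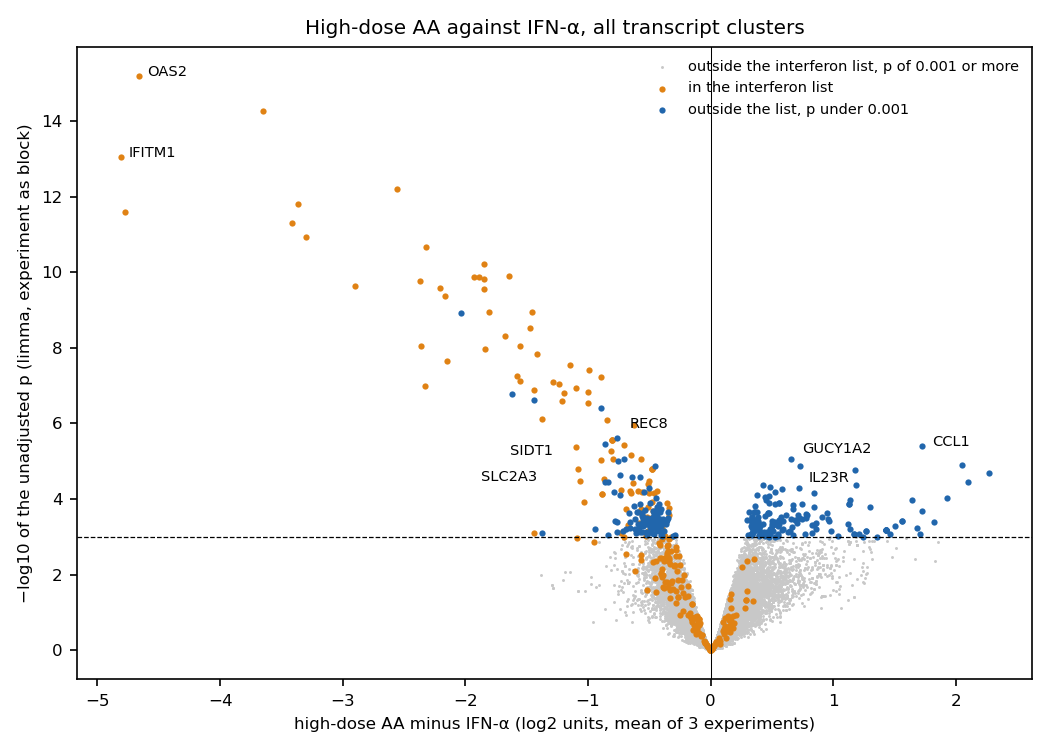
Difference between high-dose AA and IFN-α in log2 units (x-axis) against -log10 of the unadjusted p from limma (y-axis) for each of 28926 transcript clusters, with the interferon list in orange and called clusters outside it in blue; the dashed line is the call threshold. The called members of the interferon list are all on the left, whereas 148 blue points are on the right and 102 on the left.

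The 2 sides differed in kind. Of the higher clusters, 76 carried no gene symbol (51.4%, against 27.4% of all clusters outside the list), 12 carried several and 60 carried 1. These 60 name 53 genes. Of the 148 higher clusters 17 repeat the values of another cluster, and of the 102 lower ones 0 do, so the 148 are not all separate. The median level of the higher clusters was 6.27, and 45 lay below the lower quartile of all clusters, where a signal may be background. Of the lower clusters, 77 carried 1 symbol, 8 several and 17 none, with a median level of 7.92 and 5 below the lower quartile. The extremes on both sides, 2.27 and -2.03, were clusters without a symbol. In 124 of the 148 higher and in 76 of the 102 lower clusters the difference was largest in experiment 3, whose AA array stood apart, and the part of that array in these calls was not tested beyond the counts without it.

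Among the genes higher with high-dose AA, CCL1 had the largest difference of the 12 leading ones. It encodes a chemokine that activated T cells secrete and that is bound by the receptor CCR8. Its values were 9.55, 10.69 and 10.86 with AA and 7.95, 8.95 and 9.01 with IFN-α. The groups did not overlap, although experiment 1 lay below the other two in both, and within experiments the differences were 1.59, 1.74 and 1.84. The mean difference of 1.72 (standard error 0.219, adjusted p = 0.00208 in limma) is a 3.3-fold difference. CCL1 was also the only gene with a symbol outside the list to pass an adjusted p under 0.05 in the 6 arrays alone (adjusted p = 0.00942), whereas without the block its adjusted p was 0.359. In untreated cells CCL1 was 7.33, 9.37 and 9.40, with a mean close to that with IFN-α (difference from untreated -0.06). Within experiments, the IFN-α value was above the untreated one in experiment 1 and below it in experiments 2 and 3. With low and intermediate doses of AA its means were 10.17 and 10.02, so the lowest dose already had a mean near that of the high dose, 10.36. The experiments differed in this. In experiment 1 the values rose with dose (8.69, 9.11 and 9.55), whereas in experiments 2 and 3 the low dose (10.84 and 10.97) was above the high dose.

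Several other genes were higher with AA and near the untreated level with IFN-α. IL23R, a subunit of the receptor for interleukin-23, had 6.64, 6.22 and 6.83 with AA against 5.90, 5.72 and 5.92 with IFN-α, a difference of 0.72 (adjusted p = 0.0166). TLE4, a corepressor of transcription, had 9.04, 8.88 and 9.01 against 8.54, 8.43 and 8.51. Its 3 within-experiment differences lay between 0.45 and 0.50. GNG4, a gamma subunit of G proteins, had 9.97, 9.91 and 9.99 against 9.58, 9.63 and 9.53. TLL1, a metalloprotease of the tolloid family, had 5.41, 5.60 and 5.62 against 5.14, 5.07 and 5.15, and all 3 IFN-α values were below the lower quartile of their arrays. In TLE4, GNG4 and TLL1 the groups were apart on every array, with differences of 0.49, 0.38 and 0.42. OR51L1, an olfactory receptor gene, had a difference of 0.67 at levels of 4.33 to 5.65, most of which were below the lower quartile. Of these genes the study names IL23R, TLE4, GNG4 and TLL1 for these arrays, so that their direction is not independent evidence.

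A second set of higher genes had untreated values lying between those of the 2 treatments. GUCY1A2, a subunit of the soluble guanylate cyclase that senses nitric oxide, had 8.05, 7.60 and 7.90 with AA and 7.14, 7.16 and 7.28 with IFN-α, a difference of 0.66 (standard error 0.0902, adjusted p = 0.0041 in limma). Its untreated values, 7.45, 7.46 and 7.56, lay between the 2 groups, 0.36 below AA and 0.30 above IFN-α, and neither step alone was called. TAF9B, a subunit of the general transcription factor TFIID, had 10.17, 10.07 and 10.63 against 9.58, 9.80 and 9.82, with differences from untreated of 0.30 with AA and -0.26 with IFN-α. KCNMB4, an accessory subunit of a calcium-activated potassium channel, had 8.13, 7.91 and 8.00 against 7.79, 7.52 and 7.66. The groups of TAF9B and KCNMB4 did not overlap, and their smaller shifts from untreated cells (for KCNMB4 0.15 and -0.21) were not called either. These 3 genes were called only in the direct comparison. Against untreated cells 0.667% of all clusters were called with high-dose AA and 0.349% with IFN-α. Of the 148 higher clusters, 82 were called in neither comparison with untreated cells, 65 only in that of AA and 1 only in that of IFN-α. The 3 comparisons share arrays, so these numbers describe where a difference lies and are not separate evidence for it.

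Other called genes higher with AA included 2 histones. H1-1, a linker histone, had 8.53, 8.43 and 8.86 with AA against 7.99, 8.06 and 8.02 with IFN-α, a difference of 0.58. H3C2, a core histone of the H3 family, had 11.95, 11.88 and 11.82 against 11.61, 11.59 and 11.44, and here the IFN-α values were the ones below untreated cells (-0.31, against 0.03 for AA). The study names H1-1 as higher with AA and H3C2 as lower with IFN-α. KNSTRN, a protein of the mitotic spindle that was on no list, had 10.03, 10.03 and 10.19 against 9.73, 9.72 and 9.73. OSBPL10, an oxysterol-binding-protein relative also on no list, had 8.01, 7.53 and 7.65 against 7.36, 7.06 and 7.22. In these 4 genes the lowest AA value exceeded the highest IFN-α value. Of 53 measured histone genes 43 were higher with AA (median difference 0.11) and 2 were called, H1-1 and H3C2. Of 62 genes of the cell cycle and DNA replication 52 were higher (median 0.09) and 0 were called. The medians of the cell cycle list were 0.22, 0.13 and -0.03 in experiments 1 to 3, and those of the histone list 0.16, 0.14 and 0.09. CCNA2, cyclin A2, had the smallest p among cell cycle genes, with a difference of 0.33 (adjusted p = 0.0827 in limma), and TPX2, which nucleates spindle microtubules, had one of 0.29. Over all clusters the median difference was 0.03, and 43.2% were lower with AA.

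Among the genes lower with high-dose AA outside the interferon list, most of the leading ones were higher with IFN-α than in untreated cells. REC8, a cohesin subunit of meiosis, had 6.55, 6.94 and 6.66 with AA and 7.51, 7.74 and 7.19 with IFN-α, a difference of -0.77 (standard error 0.0928, adjusted p = 0.0014 in limma). The AA values were near those of untreated cells (6.83, 6.96 and 6.85), whereas IFN-α was 0.60 above them. SIDT1, a membrane protein of a family linked to the transport of double-stranded RNA, had 5.39, 5.42 and 5.71 against 6.57, 6.16 and 6.38. SLFN12L, of the Schlafen family, had 8.62, 8.18 and 8.63 against 9.52, 9.07 and 9.33. In these 3 genes every AA value lay below every IFN-α value. SIDT1 and SLFN12L, whose promoters are printed above, were 0.78 and 0.66 above untreated cells with IFN-α and -0.08 and -0.17 from them with AA. Of the genes with a symbol, REC8, SIDT1 and SLFN12L were called in the 6 arrays alone as well, and so was OR52N4, an olfactory receptor gene with a difference of -0.74 whose AA values were all below the lower quartile. RMRP, the RNA of a ribonuclease that processes ribosomal RNA, was called in both models too (difference -0.59), and is named after its values were seen. SIDT1 was called under each of the 19 alternative settings and REC8 under 18.

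MASTL, DOP1A, CLEC2D and ENPP2 followed the same course. MASTL, the Greatwall kinase of mitotic entry, had 10.27, 10.01 and 9.95 with AA against 10.72, 10.41 and 10.46 with IFN-α. ENPP2, the secreted enzyme autotaxin, had 11.41, 11.22 and 11.15 against 11.68, 11.67 and 11.78. In both, the groups were apart, with differences of -0.45 and -0.45. DOP1A, a protein of vesicle traffic, differed by -0.58. CLEC2D, the ligand of an inhibitory receptor of NK cells, had 9.72, 9.14 and 9.07 against 10.15, 9.52 and 9.88. Its groups overlapped, because both values of experiment 1 were high, although AA was lower within each experiment (-0.43, -0.38 and -0.81). XRN1, the main cytoplasmic exonuclease that degrades RNA from its 5′ end, had 9.62, 9.30 and 9.14 against 10.23, 9.90 and 10.19, and moved on both sides of untreated cells (-0.32 with AA, 0.43 with IFN-α). MLKL, the pore-forming protein of necroptosis, is itself on the interferon list. It was the single called gene among 43 of apoptosis and cell death, with 7.55, 7.40 and 6.89 against 8.08, 7.95 and 7.89 (difference -0.69, adjusted p = 0.0381 in limma). Untreated cells had 7.27, 7.53 and 7.45. AA was above them in experiment 1 and below them in experiments 2 and 3, with a mean difference of -0.14. IFN-α was 0.56 above them. The lowest AA value was that of replicate 3, and without this array the difference between the treatments was -0.51.

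For other lower genes the difference lay on the AA side, with IFN-α closer to untreated cells. SLC2A3, the glucose transporter GLUT3, which also carries dehydroascorbate, had 8.48, 8.32 and 7.73 with AA against 9.29, 8.78 and 8.67 with IFN-α, a difference of -0.74 (standard error 0.112, adjusted p = 0.0088 in limma). It was -0.66 from untreated cells with AA and 0.07 with IFN-α. SLC2A3 was the only called gene of 16 for vitamin C transport and dehydroascorbate handling, whose median was -0.03. BEST1, a chloride channel, had 6.50, 6.64 and 6.51 against 7.13, 7.03 and 7.01. EXTL2, a glycosyltransferase of heparan sulfate synthesis, had 7.48, 7.16 and 6.97 against 8.02, 7.61 and 7.90. The groups of SLC2A3, BEST1 and EXTL2 did not overlap. Of the 102 lower clusters the AA side was the larger step from untreated cells in 73 and the IFN-α side in 29, whereas of the 148 higher clusters the AA side was larger in 134. In comparisons with untreated cells, 32 of the lower clusters were called only with AA, 17 only with IFN-α and 53 with neither.

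**Figure D2:**
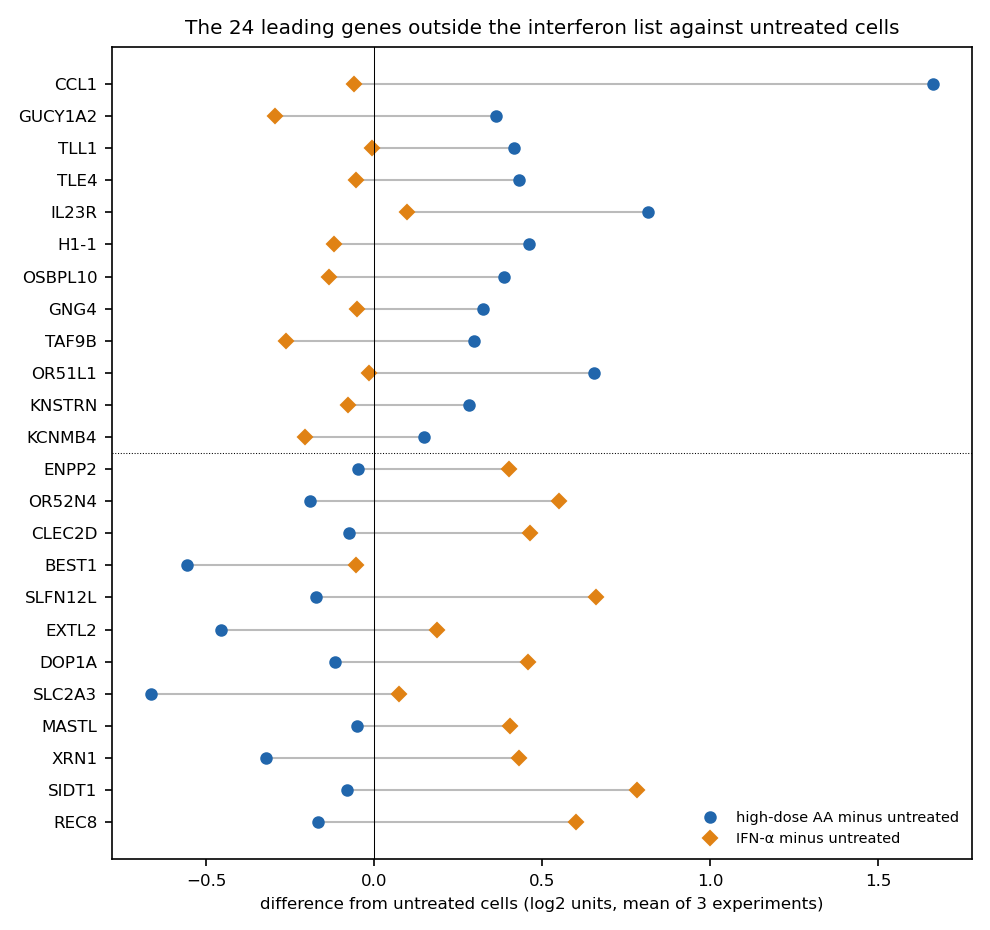
Difference from untreated cells in log2 units (x-axis), mean of 3 experiments, with high-dose AA (blue circles) and with IFN-α (orange diamonds) for the 24 leading genes outside the interferon list (y-axis), the 12 higher with AA above the dotted line and the 12 lower below it. The means of CCL1 and IL23R are moved mainly by AA, those of REC8, SIDT1 and SLFN12L mainly by IFN-α, and those of GUCY1A2 and XRN1 to opposite sides.

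Of the genes of the ATF4 and amino acid response, 6 were lower with high-dose AA than with IFN-α and passed the test. Of 42 measured genes of this list 36 were lower, with a median difference of -0.30, and all 6 called genes were among these. Over all clusters 0.712% were called lower and 43.2% were lower with AA. Of the brightest 25% of clusters 59% were lower, and this list is of bright genes (median level 9.02). SLC7A11, the cystine and glutamate exchanger, had 8.42, 8.64 and 8.62 with AA against 9.33, 9.01 and 9.23 with IFN-α, a difference of -0.63 (adjusted p = 0.0339 in limma). CHAC1, which degrades glutathione, had 8.15, 8.59 and 7.98 against 8.69, 8.95 and 8.76. INHBE, an inhibin and activin subunit, had 7.48, 7.68 and 7.12 against 8.06, 8.08 and 7.94. ATF3, a transcription factor of the stress response, had 7.35, 7.24 and 7.14 against 7.87, 7.67 and 7.58. In each of these 4 the AA values lay wholly below the IFN-α values, with differences of -0.56, -0.60 and -0.46 for CHAC1, INHBE and ATF3. SLC6A9, a glycine transporter, and STC2, a secreted glycoprotein, were the other two called genes, with differences of -0.45 and -0.95. STC2, named because it completes this count, had differences of -0.85, -0.40 and -1.60 in the 3 experiments.

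With IFN-α the list as a whole stayed near untreated cells, with a median difference of -0.01 from them against -0.31 for AA. ATF3 moved to both sides, 0.17 from untreated cells with IFN-α and -0.29 with AA, and neither step was called. The list was lower in each experiment (-0.26, -0.18 and -0.48), and 33 of its genes had a negative difference in all 3, against 15.3% of all clusters and 25.7% of the brightest 25%. Without replicate 3 of high-dose AA the median was -0.21 and 2 genes were called, CHAC1, ATF3 and SLC6A9 being among those lost, and in the 6 arrays alone 0 were. TGATGCAA was found in 5 of the 33 promoters of the list, those of CEBPG, CHAC1, JDP2, SLC1A4 and SLC1A5. It was also found in 1 of the 10 promoters of the leading genes higher with AA, that of KNSTRN, and in 0 of the 8 of the leading genes lower with AA. The study names 4 of the 42 genes as lower with high-dose AA, all of them among the 6 called (SLC7A11, CHAC1, INHBE and SLC6A9), so the direction of these 4 is not independent evidence. Without these 4 the median was -0.28 over 38 genes, which were read on the same AA arrays. ATF3 is among the 38, although the study also names it from these arrays, as a likely mediator of the cell death with AA. Cytosolic aminoacyl-tRNA synthetases, several of which ATF4 also induces, had a median of -0.11, with 15 of 18 lower and 0 called, and genes of the unfolded protein response one of -0.14, with 26 of 32 lower and 0 called. Without replicate 3 of high-dose AA these medians were -0.03 and -0.05.

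All 27 measured genes of cholesterol and fatty acid synthesis were lower with AA, with a median of -0.33, and 0 were called. HMGCS1, an early enzyme of sterol synthesis, had 12.17, 11.49 and 11.23 with AA against 12.42, 11.78 and 12.02 with IFN-α, so that the groups overlapped while every experiment had a negative difference. CYP51A1, a later enzyme of that pathway, had 10.01, 9.61 and 8.15 against 10.56, 9.88 and 9.89, with a far lower value on the AA array of experiment 3. Of 36 genes of hypoxia and glycolysis 35 were lower (median -0.31), and SLC2A3 was called. VEGFA, a growth factor of blood vessels induced by hypoxia, had a difference of -0.63 (adjusted p = 0.121 in limma), and is also on the ATF4 list. By experiment, the sterol list had medians of -0.19, -0.15 and -0.77 and the hypoxia list -0.15, -0.12 and -0.63, so that experiment 3, with the array that stood apart, held the larger part of both. Without that array the medians were -0.17 and -0.15. Other lists of metabolism had medians near that of all clusters, 0.03 for the mitochondrial respiratory chain (40 of 69 higher) and 0.02 for antioxidant genes and NRF2 targets (24 of 39 higher), with 0 called in either. The sterol and hypoxia lists are of bright genes (median levels 10.20 and 10.08), and the brightest 25% of all clusters had a median difference of -0.16 in experiment 3. By their mean difference 59% of these bright clusters were lower with AA.

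SNORD116 RNAs, small nucleolar RNAs made in tandem copies from the imprinted Prader-Willi region, had a median difference of -0.44 over 20 RNAs, of which 19 were lower with AA and 1 was called. Without replicate 3 of high-dose AA the median was -0.22. The called RNA was SNORD116-6, with 6.67, 5.91 and 4.68 with AA against 7.65, 6.94 and 6.80 with IFN-α. The 3 AA values were spread more widely than its mean difference of -1.38 (standard error 0.31, adjusted p = 0.0721 in limma). The list had medians of -0.31, -0.23 and -0.69 in the 3 experiments. The study names 3 of these RNAs as lower with AA, and the copies are near-identical, so clusters may share signal and are not independent. SNORD115 RNAs, from the same region, had a median of 0.03, with 8 of 20 lower.

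The other immune lists had 0 or 1 called gene each, and those of cytokines and of MHC class II each hold 1 gene of the interferon list (IL15 and CIITA). Over all clusters 1.22% were called, so 1 call in a list of such a size says little about the list. Of 54 genes of T-cell receptors and activation 1 was called, IL23R, and of 42 cytokines and chemokines 1 was, CCL1. CCL3, an inflammatory chemokine, had 10.70 ± 0.38 with AA against 11.20 ± 0.19 with IFN-α (mean ± SD of the 3 arrays, difference -0.51, adjusted p = 0.132 in limma). Targets of NF-κB were lower in 27 of 30 (median -0.15) and AP-1 and early growth genes in 23 of 28 (median -0.19), with 0 called in either list. Without replicate 3 of high-dose AA those medians were -0.06 and -0.12. Of all clusters 43.2% were lower with AA, and of the brightest 25% of them 59% were. HLA-DOB, which modulates peptide loading of MHC class II, was the called gene of 13 class II genes, with 6.88, 6.90 and 6.29 against 7.28, 7.39 and 7.09. The groups did not overlap, and the differences from untreated cells were -0.30 with AA and 0.27 with IFN-α. Its adjusted p was 0.0542 in limma, and without replicate 3 of high-dose AA it was no longer called. Ascorbate-dependent dioxygenases were lower in 34 of 45 (median -0.14, and -0.09 without replicate 3 of high-dose AA) with 0 called. ALKBH5, an RNA demethylase of this family, had 10.93, 10.65 and 10.01 against 11.29, 10.99 and 10.91.

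Genes that the study lists as changed by high-dose AA were then read against IFN-α. The study chose them on these arrays against untreated cells, which do not enter the difference, but the AA arrays are the same, so these counts are not independent evidence. Of 16 genes with a cluster of their own listed as lower, 14 were lower than with IFN-α and 7 were called, and of 17 listed as higher, 16 were higher and 8 were called. Without replicate 3 of high-dose AA 3 and 6 were called, and in the 6 arrays alone 0 and 0. Over all clusters 0.712% were called lower and 0.512% higher in the main model, and 43.2% were lower with AA. NRXN3, a neuronal adhesion molecule, had 6.99, 6.90 and 6.89 with AA against 7.46, 7.50 and 7.89 with IFN-α. KYNU, an enzyme of tryptophan breakdown, had 4.50, 4.53 and 4.96 against 4.06, 4.18 and 4.01, all below the lower quartile of their arrays. Both genes had groups wholly apart, with differences of -0.69 and 0.58, and NRXN3 was not called without replicate 3 of high-dose AA.

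Some of these genes moved with both treatments. The cluster of MIR155 and its host gene MIR155HG, which give rise to a microRNA abundant in activated lymphocytes, had 10.04, 10.08 and 9.92 with AA, 10.39, 10.19 and 10.24 with IFN-α and 10.73, 10.51 and 10.40 in untreated cells. AA was the lowest of the 3 conditions in every experiment, at -0.53 from untreated cells and IFN-α at -0.27. The difference between the treatments of -0.26 (95% interval -0.42 to -0.10, adjusted p = 0.124 in limma) was not called. The cluster measures the host transcript or precursor and not the mature microRNA, whose sequence (RefSeq, GRCh38.p14, chr21:25573983-25574006, + strand) is given with its seed, bases 2 to 8, in capitals.
hsa-miR-155-5p: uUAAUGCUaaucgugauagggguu
PGBD1, a gene derived from a transposase, was lower with both treatments, with 5.11, 5.11 and 4.93 with AA, 5.06, 4.97 and 4.90 with IFN-α and 5.39, 5.37 and 5.30 in untreated cells. AA and IFN-α overlapped, with a difference of 0.07 (95% interval -0.07 to 0.22). TAS2R9, a bitter taste receptor gene, was 0.37 above untreated cells with AA and 0.29 with IFN-α, and the treatments differed by 0.08 (95% interval -0.09 to 0.25). CD69, an early activation antigen of lymphocytes that the interferon list also holds, was 0.64 above untreated cells with AA and 0.28 with IFN-α, and its difference of 0.36 (adjusted p = 0.124 in limma) was not called. The values of PGBD1, TAS2R9 and CD69 with both treatments were all below the lower quartile of their arrays.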

How the data were processed

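RNA of MT-2 cells was hybridised to 15 arrays, 3 for each of 5 conditions, and replicate numbers stand for the experiment tags of the titles. The deposited log2 values were made by the authors with RMA (background correction, quantile normalization and summarization per transcript cluster) in the xps package, per the labels and the study's methods. They were used as deposited, with no further normalization. The genome build of the array annotation was not given in the sources used here, so no gene positions are given apart from those of RefSeq sequences. Of the clusters, 19310 carried 1 symbol, 1752 several and 7864 none, and the values of 953 repeat those of another cluster.

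limma 3.58.1 in R 4.3.3 gave the difference of the high AA dose from IFN-α, in 1 model over 15 arrays with the experiment as a fixed block (8 residual and 4.2 prior degrees of freedom). The threshold for a call (two-sided p under 0.001, not adjusted) is the one in the study's methods. Benjamini-Hochberg adjustment ran over all 28926 clusters. The methods name no block. It was used because the arrays pair by tag: deviations of AA and IFN-α arrays from their group means correlated at 0.408, 0.436 and 0.277 for equal numbers and at -0.30 to -0.02 for unequal ones. Over all 5 conditions, equal numbers gave -0.19 to 0.54 (median 0.28) and unequal ones -0.46 to 0.21 (median -0.17). Deviations within a group cancel, so negative values for unequal numbers follow in part from the positive ones. The fit was tested on simulated data with known changes. For lists, each gene was represented by its brightest cluster with 1 symbol. Nothing was tested over a list, and counts and medians describe it.

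The members, the gene lists and the tests were chosen with earlier results of these data known. Named genes are up to 12 per direction, taken by p from called clusters that carry 1 symbol, lie outside the interferon list and have 1 sign in the 3 experiments, the genes that the study lists for high-dose AA or as lower with IFN-α, up to 4 members of each list by p, and 6 interferon-stimulated genes. STC2 and RMRP lie outside this rule and were chosen after their values were seen. Replicates carry separate experiment tags on 1 cell line, but 2 of the tags share a date and nothing says how independent those cultures were, so p values measure only the spread between these samples, which may in part be technical, and 3 arrays per group limit the precision. Alternatives were other models and blocks, filters on dim or unnamed clusters, variance trends, array weights and cyclic loess. Further ones were other thresholds, other bounds of the interferon list, and leaving out arrays or experiments. Random blocks used statmod 1.5.0. Scanner intensities were not used here. Figures were drawn with Python 3.11.15 (matplotlib 3.10.9).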

Additional observations from a re-analysis of the deposited data

How the results depend on the processing

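The count of called clusters outside the interferon list was 250 (148 higher and 102 lower with high-dose AA), that over all clusters 354, and that at an adjusted p under 0.05 outside the list 93. With the replicate as a random block, with 12 arrays, without the dimmest 25%, with clusters of 1 symbol or with a trended and robust variance, the 3 counts stayed within 1.5 times, but with clusters of 1 symbol the split outside the list turned to 80 higher and 99 lower. In the same order they were 97, 188 and 28 with no replicate block, 22, 76 and 3 in the 6 arrays compared with the replicate block, 12, 64 and 2 in those arrays with no replicate block, and 31, 92 and 5 with array weights. Cyclic loess gave 163 in place of 93 at the adjusted p, and 146 higher and 166 lower in place of 148 and 102, and leaving out IFN-α replicate 2 gave 88 higher and 106 lower. At p under 0.005 and p under 0.01 there were 944 and 1569 outside the list and 1080 and 1716 in all. Leaving out 1 array or 1 experiment gave 64 to 576 outside the list, 133 to 696 in all and 4 to 1137 at the adjusted p. Outside the list the count was 64 without IFN-α replicate 3, 124 without IFN-α replicate 1 and 576 without high-dose AA replicate 1. It fell below 130 without the whole of any 1 experiment, down to 72 without experiment 2. The cause of these shifts was not tested.

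Of the 24 leading genes 0 changed sign under any alternative. These genes were chosen as called and of the same sign in every experiment, and several alternative models left the mean difference itself unchanged. The lack of sign changes therefore follows largely from the choice of genes and is not added evidence of stability. All 24 stayed called without any 1 high-dose AA array, but 20 did without IFN-α replicate 3. Without the whole of experiment 1, 2 or 3, 15, 11 and 14 stayed called. In the 6 arrays 5 did with the block and 1 with no block, and in the 15 arrays 11 did with array weights and 17 with no block. The median of the ATF4 list ran from -0.37 to -0.21 and that of the SNORD116 list from -0.49 to -0.26 without 1 replicate, and under cyclic loess they were -0.27 and -0.47.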
